A study of Homo sapiens with 12 samples.

Results

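Ribosome footprints on 10 genes that encode enzymes of glycolysis were followed in the A375 cell line: GPI, ALDOA, ALDOC, TPI1, GAPDH, PGK1, ENO1, ENO2, PKM and LDHA. They were chosen by name as enzymes of the pathway, with earlier results of these data known, and do not cover every step. All 10 had a row among the 13074 genes of the footprint count table, and all 10 were among the 10467 genes with enough counts to be tested. A375 is an established human melanoma line. A ribosome footprint is the stretch of mRNA that a ribosome shields from nuclease, so a gene's footprint count reflects both how much of its mRNA is present and how heavily that mRNA is loaded with ribosomes. The 12 libraries fell into 4 groups of 3: control cells and FTSJ1 knockout cells, each at 0 nM and at 30 nM sodium selenite. FTSJ1 is a methyltransferase that acts on ribose groups in the anticodon loop of tRNAs, and sodium selenite is a source of selenium. All knockout libraries come from 1 line per the labels, and what sets that line apart from control cells besides FTSJ1 cannot be told apart from the knockout. No mRNA measurement was used, and mRNA level and translation were not separated.

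Glycolysis splits glucose into pyruvate in the cytosol and yields ATP and NADH. In the upper steps glucose is phosphorylated, turned into fructose phosphates and cleaved by aldolase, and in the lower steps the triose phosphates are oxidised and ATP is recovered. Lactate dehydrogenase then turns pyruvate into lactate and gives back the NAD+ that the GAPDH step needs. Many tumour cells, melanoma among them, send much of their glucose to lactate even where oxygen is present. The transcription factors HIF-1, whose oxygen-regulated subunit is HIF1A, and MYC are known to raise the transcription of many of these genes, and both read closely related DNA motifs.

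Library totals ran from 520989 to 1543627 counts, with a median of 1336000, and replicates 2 and 3 of the knockout with selenite were the smallest at 636920 and 520989. FTSJ1 itself (chrX:48476199-48486364) had 64 to 82 counts in each control library and 0 to 7 in each knockout library. Of 12 melanocyte and melanoma markers listed, 8 were measured, and DCT was at 0 in at least 1 library. Their summed level, in CPM (counts scaled to a common library total), was 1338 to 1423 CPM in control cells and 731 to 793 CPM in knockout cells without selenite, and 1381 to 1447 CPM and 891 to 1000 CPM with it. Of 12 markers of other cell types, 4 were measured, and DCN was at 0 in at least 1 library. Their sum was 37.4 to 39.9 CPM in control and 11.1 to 17.0 CPM in knockout libraries without selenite, and 31.5 to 42.0 and 7.13 to 29.8 CPM with it. LYZ among them fell by 1.60 and 1.68 on the log2 scale in the knockout without and with selenite (adjusted p = 0.00015 and 7e-04, the second lost without knockout replicate 1 at -0.98, adjusted p = 0.057). PMEL, MLANA, TYR and TYRP1 had no entry among the footprint counts, so they were not analysed here. The part that these marker differences play in the results below was not tested.

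The genes lie on 8 chromosomes (GRCh38.p14). GAPDH (chr12:6534517-6538371), TPI1 (chr12:6867420-6870948) and ENO2 (chr12:6914580-6923697) are neighbours, with 329 kb between the first pair and 43.6 kb between TPI1 and ENO2. ENO1 (chr1:8861000-8878686), LDHA (chr11:18394563-18408425) and PKM (chr15:72199029-72231591) lie apart from them. ALDOA is at chr16:30064279-30070420, ALDOC at chr17:28573120-28576895, GPI at chr19:34359718-34402413 and PGK1 at chrX:78104248-78129295. Copies of spliced mRNA have been inserted into the genome many times for some of these genes: 65 annotated pseudogenes carry the name of GAPDH, 6 that of LDHA, 5 that of PKM, 4 each those of TPI1 and ENO1, and 2 each those of ALDOA and PGK1, while GPI, ALDOC and ENO2 have 0. How reads that match several places, or overlapping genes (SPSB2 at TPI1, LOC112694756 at ALDOA, LOC124902868 at ENO2 and MIR6728 at ENO1), were counted is not given in the sources used here, so the levels of these genes carry that uncertainty. Single-library counts of the members ran from 67 for ALDOC to 10073 for ENO1, for which counting alone gives a relative error of 12.2% and 0.996%. Since no coding lengths were at hand, the level of 1 enzyme gene is not set against that of another.

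The promoters of 3 members are shown because LDHA, ENO2 and ENO1 gave 3 different patterns over the groups. Each run is the 250 bases before an annotated start (RefSeq, GRCh38.p14), 5′ to 3′ on the strand of the gene, at chr11:18394313-18394562 on the plus strand for LDHA, chr12:6914330-6914579 on the plus strand for ENO2 and chr1:8878687-8878936 on the minus strand for ENO1. Capitals mark ACGTG, the core of the hypoxia response element, on either strand, and CACGTG, the E-box read by MYC, which holds that core on both strands.
LDHA: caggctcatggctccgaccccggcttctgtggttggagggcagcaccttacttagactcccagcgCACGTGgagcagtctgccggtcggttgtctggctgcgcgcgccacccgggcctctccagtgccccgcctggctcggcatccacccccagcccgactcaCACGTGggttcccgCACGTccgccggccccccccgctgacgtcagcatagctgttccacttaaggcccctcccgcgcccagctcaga
ENO2: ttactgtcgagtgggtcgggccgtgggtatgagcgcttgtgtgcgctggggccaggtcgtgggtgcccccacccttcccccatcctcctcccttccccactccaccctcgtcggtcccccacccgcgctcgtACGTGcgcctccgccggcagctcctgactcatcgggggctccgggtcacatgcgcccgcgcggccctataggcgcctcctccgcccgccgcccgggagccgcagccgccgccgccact
ENO1: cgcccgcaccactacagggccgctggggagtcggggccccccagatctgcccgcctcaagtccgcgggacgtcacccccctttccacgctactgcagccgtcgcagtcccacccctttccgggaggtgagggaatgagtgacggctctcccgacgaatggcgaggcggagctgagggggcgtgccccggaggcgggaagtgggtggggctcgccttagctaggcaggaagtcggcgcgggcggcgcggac
The LDHA run holds 5 matches to ACGTG, 4 of which come from 2 copies of CACGTG. The ENO2 run holds 1 match to ACGTG and 0 to CACGTG, and the ENO1 run holds 0 of either in this window. Of 14 promoters listed for the 10 members, 10 hold ACGTG (in 8 members) and 4 hold CACGTG (in 4 members), whereas among all 35116 promoters given by RefSeq 18.5% hold ACGTG and 6.34% hold CACGTG. A second listed LDHA promoter, at chr11:18396101-18396350 on the plus strand, holds 0 of either motif. The share of G and C was 53.2% to 74.0% in the 14 member promoters, and the 35116 promoters were not matched to them for it. Some of the listed ALDOA promoters overlap in sequence. These matches describe the letters only.

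Summed over the 10 genes, footprints made up 1.83% ± 0.037 (SD, n = 3) of the counts in the control group and 2.02% ± 0.059 in the knockout group without selenite. With selenite the share was 1.77% ± 0.042 in control cells and 2.15% ± 0.022 in knockout cells. Every knockout library lay above every control library at both selenite levels. The share counts a few very abundant genes heavily, so each gene is taken in turn below, with values in CPM after TMM scaling of the library sizes, listed as replicates 1 to 3.

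**Figure D1:**
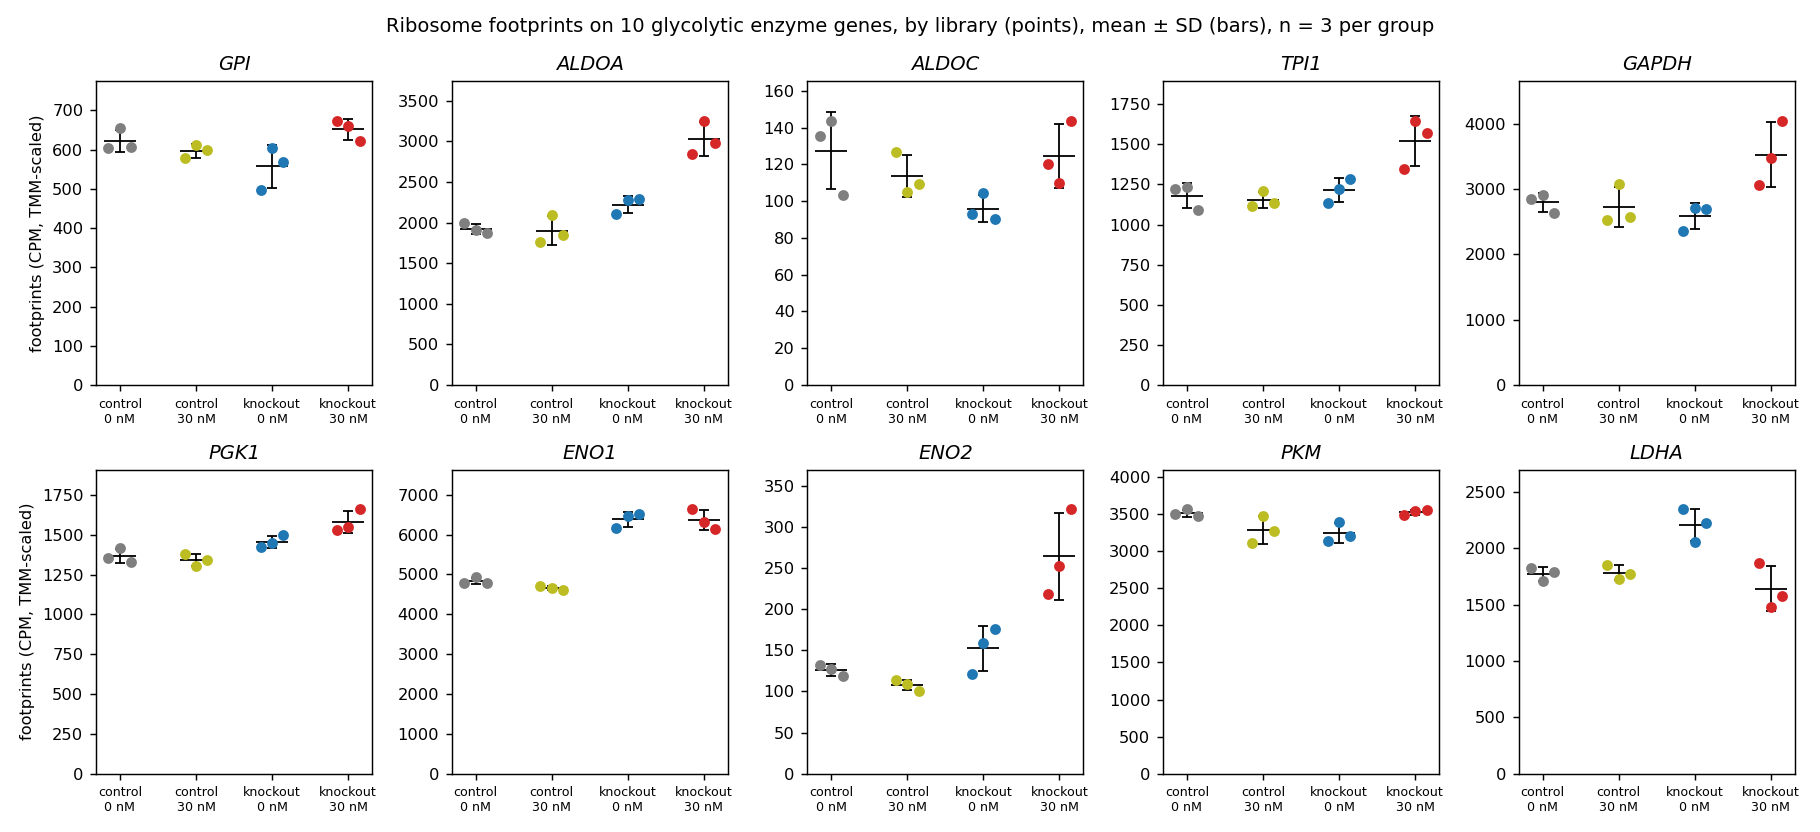
Footprints on each of the 10 glycolytic enzyme genes in CPM (vertical axes, from 0, scaled per gene) in the 4 groups, with a point per library and bars for the mean ± SD of 3 libraries. ENO1 is higher in both knockout groups, ENO2 is highest in the knockout with selenite (218.6 to 321.4 CPM), and LDHA is highest in the knockout without selenite (2057 to 2346 CPM).

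Without selenite, few of the enzymes were called different between knockout and control cells. By edgeR's quasi-likelihood test with Benjamini-Hochberg adjustment over all tested genes at 0.05, ENO1 and LDHA rose, ALDOC fell and the other 7 did not pass. Over all tested genes 11.8% were called higher and 12% lower in this comparison, so 2 higher and 1 lower of 10 is near the background. The median log2 change of the members was 0.067, against 0.00 over all genes.

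ENO1, the main enolase of most cells, turns 2-phosphoglycerate into phosphoenolpyruvate in the lower part of the pathway. Its level was 4794, 4931 and 4795 CPM in control libraries and 6163, 6467 and 6522 CPM in knockout libraries without selenite. The groups were far apart: the lowest knockout library stood above the highest control library. The log2 change was 0.40 ± 0.076 (SE, adjusted p = 1e-04), a 1.32-fold rise.

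LDHA encodes the lactate dehydrogenase subunit that favours the making of lactate from pyruvate. Control libraries had 1830, 1708 and 1791 CPM, and knockout libraries 2346, 2057 and 2221 CPM. Again the groups did not overlap. The log2 change was 0.31 ± 0.088 (adjusted p = 0.0071), and it missed the threshold when control replicate 2 was left out (0.28, adjusted p = 0.055).

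ALDOC, an aldolase best known from brain, was the least counted member. Its libraries had 135.3, 143.8 and 103.6 CPM in control cells and 93.0, 104.5 and 90.5 CPM in knockout cells, and the highest knockout library lay just above the lowest control library. It fell by 0.41 ± 0.14 on the log2 scale (adjusted p = 0.023). The call did not hold without control replicate 1 or 2 or knockout replicate 1 or 3 (log2 changes of -0.39 to -0.32, adjusted p 0.071 to 0.15), nor by DESeq2 (adjusted p = 0.069) or with all libraries thinned to the smallest total (-0.30, adjusted p = 0.30). ALDOA, the aldolase of muscle and most proliferating cells, had a log2 difference of 0.21 ± 0.085 (adjusted p = 0.075). ALDOA passed when only the compared groups were fitted (0.20, adjusted p = 0.04), and its value without both small libraries was 0.21. Over 22 alternatives its log2 difference ran from 0.17 to 0.27, with adjusted p from 0.0046 to 0.24.

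The remaining 6 members did not pass without selenite either. The log2 differences were -0.16 for GPI, the isomerase of glucose 6-phosphate, 0.041 for TPI1, which interconverts the triose phosphates, and -0.11 for GAPDH, which oxidises glyceraldehyde 3-phosphate. They were 0.093 for PGK1, the first ATP-making step, 0.27 for ENO2, the enolase best known from neurons, and -0.11 for PKM, which makes pyruvate. Adjusted p-values for these 6 were 0.17 to 0.79.

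With 30 nM selenite in both genotypes, more of the pathway was higher in the knockout. ALDOA, TPI1, GAPDH, PGK1, ENO1 and ENO2 rose, from the aldolase step to the enolase step, 0 members fell, and GPI, ALDOC, PKM and LDHA did not pass. Of all tested genes 21.3% were called higher and 21.6% lower here. The members' median log2 change was 0.30, against -0.02 over all genes.

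ENO2 showed the widest gap of the members. It had 113.6, 109.3 and 101.2 CPM in control libraries with selenite and 218.6, 252.4 and 321.4 CPM in knockout libraries with selenite. All 3 knockout libraries stood well above the controls. The log2 change was 1.27 ± 0.14 (adjusted p = 4.8e-09), or 2.41-fold.

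ALDOA cleaves fructose 1,6-bisphosphate into triose phosphates. Its control libraries had 1757, 2095 and 1846 CPM, and its knockout libraries 2841, 3254 and 2983 CPM. The groups were clearly separated, with a log2 change of 0.67 ± 0.086 (adjusted p = 6.5e-08), or 1.59-fold. ENO1 was 4715, 4658 and 4618 CPM in control and 6631, 6321 and 6151 CPM in knockout, again without overlap. Its change of 0.45 ± 0.076 on the log2 scale (adjusted p = 1e-05) was much like that without selenite, and the test of the difference gave 0.050 ± 0.11 (adjusted p = 0.81).

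The remaining rises were smaller. TPI1 was 1115, 1209 and 1132 CPM in control and 1346, 1647 and 1569 CPM in knockout, with no overlap (log2 change 0.40 ± 0.090, adjusted p = 0.00051). GAPDH was 2528, 3076 and 2566 CPM in control and 3057, 3470 and 4045 CPM in knockout. The lowest knockout library of GAPDH fell just below the highest control library (log2 change 0.37 ± 0.095, adjusted p = 0.0019). PGK1 was 1379, 1301 and 1341 CPM in control and 1531, 1547 and 1659 CPM in knockout, without overlap (log2 change 0.24 ± 0.082, adjusted p = 0.02). The PGK1 call did not hold without control replicate 2 with selenite (0.21, adjusted p = 0.076) or knockout replicate 3 with selenite (0.20, adjusted p = 0.064). Without both small knockout libraries, ALDOA, ENO1 and ENO2 passed, and TPI1 (0.24, adjusted p = 0.11), GAPDH (0.19, adjusted p = 0.24) and PGK1 (0.21, adjusted p = 0.14) did not.

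Among the 4 that did not pass, PKM was 3108 to 3475 CPM in control and 3488 to 3552 CPM in knockout with selenite, and GPI 577.6 to 612.4 CPM and 620.9 to 673.5 CPM. Both sets of libraries were separated by a narrow gap, with log2 differences of 0.10 (adjusted p = 0.31) and 0.13 (adjusted p = 0.27). ALDOC differed by 0.12 (adjusted p = 0.53) and LDHA by -0.12 (adjusted p = 0.30).

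**Figure D2:**
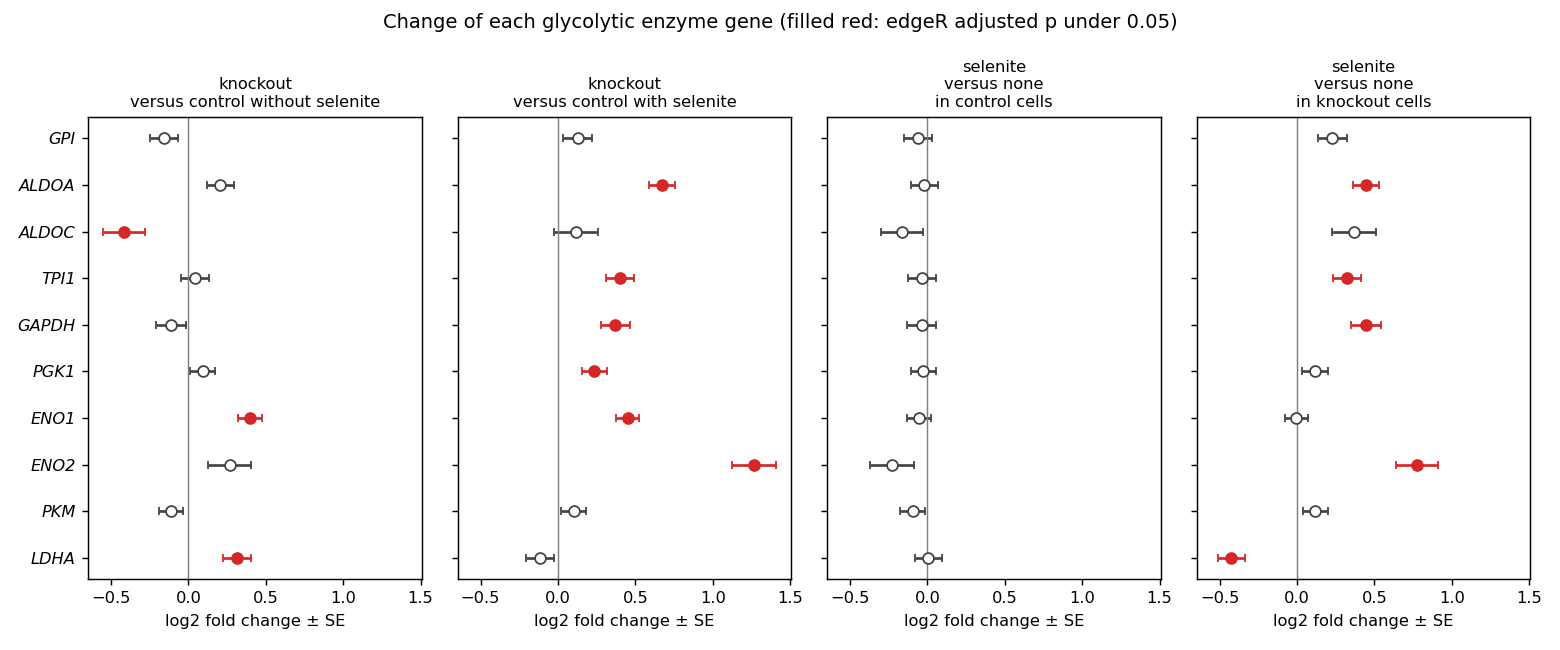
Log2 fold change ± SE (horizontal axes) of each glycolytic enzyme gene in 4 comparisons, from fits to 3 libraries per group, with filled red points for an edgeR adjusted p under 0.05. In control cells selenite gives values of -0.23 to 0.01, while in knockout cells ENO2, ALDOA, GAPDH and TPI1 lie to the right of 0 and LDHA lies to the left.

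In control cells selenite left the enzymes near their levels without it. All ENO1 and ENO2 libraries with selenite nevertheless lay below those without it (log2 changes of -0.054 and -0.23). The log2 changes ran from -0.23 for ENO2 to 0.01 for LDHA with a median of -0.046, and 0 of 10 members passed by edgeR. Across all tested genes 2 passed, both higher (0.0191%), and at an unadjusted p under 0.05 it was 284 genes, or 2.71%, and 0 members. By DESeq2, too, 0 members passed.

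In knockout cells 4 enzymes rose with selenite and 1 fell. ENO2, ALDOA, GAPDH and TPI1 were higher, LDHA was lower, and 10.2% of all tested genes were called higher and 10.3% lower. The median over the members was 0.28, against 0.01 over all genes. These libraries are the same knockout libraries with selenite as in the preceding comparison with control cells, so the changes there and here are not independent.

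ENO2 went from 121.5, 159.5 and 175.9 CPM without selenite to 218.6, 252.4 and 321.4 CPM with it, which leaves a gap between the groups (log2 change 0.78 ± 0.14, adjusted p = 2e-04). ALDOA went from 2099, 2274 and 2292 CPM to 2841, 3254 and 2983 CPM, also with a gap (0.45 ± 0.085, adjusted p = 0.00047). GAPDH had 2355, 2707 and 2690 CPM without selenite and 3057, 3470 and 4045 CPM with it (0.45 ± 0.095, adjusted p = 0.0015). The same order of groups held for TPI1, a step that feeds GAPDH, which went from 1136, 1223 and 1286 CPM to 1346, 1647 and 1569 CPM (0.32 ± 0.090, adjusted p = 0.011). The TPI1 call did not hold without knockout replicate 1 without selenite or replicate 2 with it (0.27 to 0.29, adjusted p 0.064 and 0.073).

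LDHA moved the other way. It had 2346, 2057 and 2221 CPM in knockout libraries without selenite and 1869, 1480 and 1579 CPM in those with it, and the groups did not overlap. It fell by 0.42 ± 0.089 on the log2 scale (adjusted p = 0.0011). With selenite its knockout libraries lay around the control libraries, which had 1856, 1726 and 1771 CPM.

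ENO1 did not pass (-0.0034 ± 0.076, adjusted p = 0.99), with 6163 to 6522 CPM without and 6151 to 6631 CPM with selenite. The log2 changes of PGK1, PKM, GPI and ALDOC were 0.12, 0.12, 0.23 and 0.37 (adjusted p 0.064 to 0.33). With upper-quartile scaling GPI (0.26, adjusted p = 0.046) and ALDOC (0.40, adjusted p = 0.048) passed, and GPI did by DESeq2 (adjusted p = 0.04). Without both small knockout libraries, which leaves 1 knockout library with selenite that is assumed to vary like the others, 0 members passed in this comparison and 54 genes did. The members' values were then 0.54 for ENO2 (adjusted p = 0.10), 0.37 for ALDOA (0.095), 0.26 for GAPDH (0.27), 0.17 for TPI1 (0.50) and -0.22 for LDHA (0.33).

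The response to selenite differed between the genotypes for 4 members. The interaction, the log2 change with selenite in knockout cells minus that in control cells, was 1.00 ± 0.20 for ENO2 (adjusted p = 0.0032), 0.46 ± 0.12 for ALDOA (0.019), 0.48 ± 0.13 for GAPDH (0.026) and -0.43 ± 0.12 for LDHA (0.031). Among all tested genes 3.76% were called higher and 3.69% lower. The other 6 members had values of 0.050 to 0.53 with adjusted p of 0.075 to 0.81. ENO2 passed with any single library left out. ALDOA did not pass without replicate 1 of either control group or of the knockout without selenite, or without knockout replicate 2 with selenite (0.41 to 0.44, adjusted p 0.054 to 0.066). GAPDH did not pass without control replicate 1 or 2 or knockout replicate 1 without selenite, control replicate 1 or 3 with it, or knockout replicate 2 or 3 with it (0.38 to 0.51, adjusted p 0.056 to 0.088). LDHA did not pass without any of the control libraries without selenite, knockout replicate 1 or 3 without it, control replicate 1 or 3 with it, or knockout replicate 2 or 3 with it (-0.46 to -0.35, adjusted p 0.053 to 0.13), or with upper-quartile scaling (-0.39, adjusted p = 0.052). TPI1 (0.36, adjusted p = 0.075) passed by DESeq2 (adjusted p = 0.035) and with upper-quartile scaling (0.40, adjusted p = 0.049). Without both small libraries the interaction was 0.77 for ENO2 (adjusted p = 0.13), 0.39 for ALDOA (0.23), 0.29 for GAPDH (0.37) and -0.23 for LDHA (0.47).

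Gene density around the members was set beside the selenite response in knockout cells. Counted as protein-coding genes within 1 Mb, ALDOA had 71 neighbours, TPI1 and ENO2 56 each and GAPDH 50, and these were the 4 members in the densest surroundings and the 4 called higher. ALDOC had 42, GPI 33, LDHA 31, ENO1 18, PKM 17 and PGK1 12, and the median of tested genes was 21. The match depends on the threshold: ALDOC, which did not pass, changed by 0.37, more than TPI1 at 0.32. Nor did the size of the change follow density among the 4, with 0.78 for ENO2 and 0.45 for ALDOA. The neighbourhoods of GAPDH, TPI1 and ENO2 overlap. Over 10461 tested genes, Spearman's rho between gene density and the log2 change with selenite in knockout cells was 0.432, against -0.0725 in control cells. It was 0.304 for knockout against control with selenite and -0.00233 without. These genes share libraries and depth, so the values are a description. Per library, the correlation of gene density with the deviation from each gene's mean was 0.235, 0.319 and 0.33 in the knockout with selenite, and -0.285 to 0.021 in the other 9 libraries.

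When the trend with gene density was removed from each library, a setting chosen after seeing the data, the enzymes divided. For selenite in knockout cells ENO2 (0.51, adjusted p = 0.0057) and LDHA (-0.51, adjusted p = 9.6e-05) passed as before. ALDOA (0.11, adjusted p = 0.35), TPI1 (0.050, adjusted p = 0.73) and GAPDH (0.21, adjusted p = 0.076) no longer passed, and PGK1 (0.33, adjusted p = 0.004) and PKM (0.26, adjusted p = 0.019) now did. For knockout against control with selenite, ENO2 was 1.01, ENO1 0.55, PGK1 0.47 and ALDOA 0.38, each still past the threshold. In that comparison TPI1 (0.14, adjusted p = 0.17) and GAPDH (0.13, adjusted p = 0.20) dropped out, and PKM (0.23, adjusted p = 0.012) and LDHA (-0.26, adjusted p = 0.015) came in. The interaction remained past the threshold for ENO2 (0.71, adjusted p = 0.019) and LDHA (-0.53, adjusted p = 0.0089), not for ALDOA (0.11, adjusted p = 0.62) or GAPDH (0.23, adjusted p = 0.26), and PKM passed (0.35, adjusted p = 0.049).

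**Figure D3:**
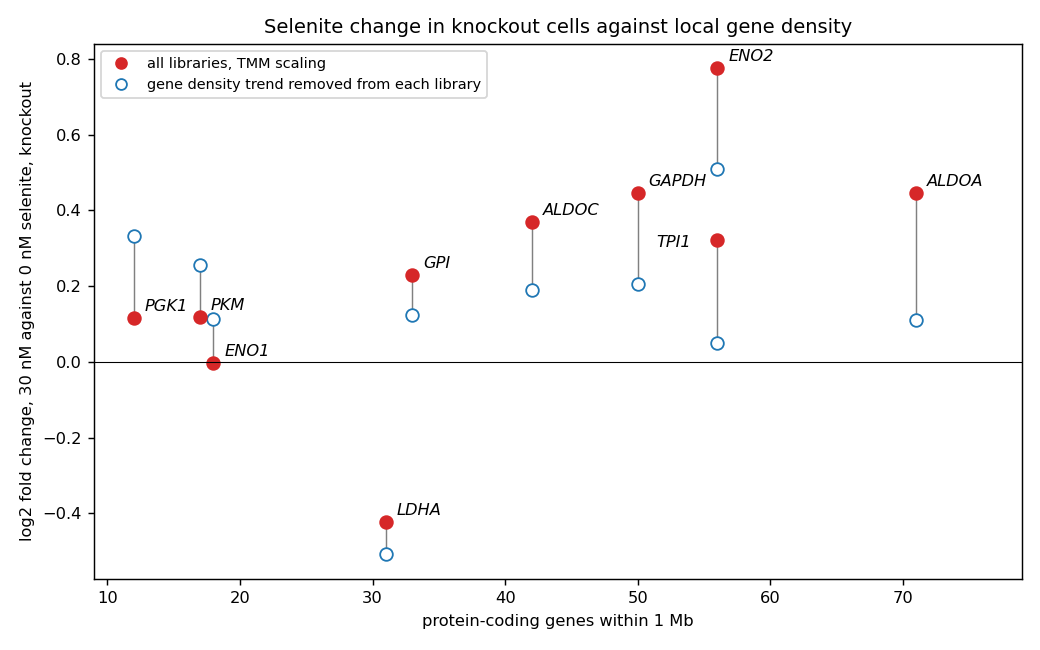
Log2 fold change of each glycolytic enzyme gene with 30 nM selenite in knockout cells (vertical axis) against the number of protein-coding genes within 1 Mb (horizontal axis), with filled points from all libraries and open points after the trend with gene density was removed from each library. ALDOA moves from 0.45 to 0.11 and TPI1 from 0.32 to 0.050, while LDHA moves from -0.42 to -0.51.

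Within the isoform pairs, the ratio of CPM in a library is free of gene length when groups are compared. ALDOC made up 6.20% ± 0.893 (SD, n = 3) of the footprints of the aldolase pair in control cells and 4.14% ± 0.309 in knockout cells without selenite, and 5.70% ± 0.977 and 3.98% ± 0.671 with it. Every knockout library was below every control library at both selenite levels. The per-gene tests differ: ALDOC fell without selenite, and ALDOA rose with it. ENO2 made up 2.54% ± 0.142 of the enolase pair in control cells, 2.32% ± 0.354 in knockout cells, and 2.26% ± 0.107 in control cells with selenite. The knockout with selenite, with libraries from 3.19% to 4.97%, stood above the other groups, whose libraries ran from 1.93% to 2.69%.

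Enzymes and isoforms of the pathway outside the 10 gave a wider view. Of 23 listed, 14 were tested, and knockout against control without selenite 6 rose and 0 fell, where 11.8% of all genes were called higher and 12% lower. The median log2 change of the 14 was 0.42, against 0.00 over all genes. PGM1, which links glycogen to glucose 6-phosphate, rose by 0.92 (adjusted p = 7.5e-07), PGAM1, the phosphoglycerate mutase that stands just before enolase, by 0.80 (adjusted p = 0.00081), and PFKP, the platelet form of phosphofructokinase, by 0.63 (adjusted p = 3.8e-05). PFKP had 146.7 to 157.3 CPM in control and 217.1 to 251.0 CPM in knockout libraries, well apart. With selenite, where 21.3% of all genes were called higher and 21.6% lower, 8 rose and 1 fell, led by PGAM1 (1.16), PFKP (1.12) and ENO3 (1.09), the muscle enolase, with adjusted p of 4.5e-06, 7.5e-10 and 0.00036. In control cells 0 of the 14 passed with selenite.

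LDHB, the other main lactate dehydrogenase subunit, fell with selenite in knockout cells, as LDHA did. Its mean was 1906 ± 119 CPM (SD, n = 3) without selenite and 1387 ± 189 CPM with it, a fall by 0.45 ± 0.091 on the log2 scale (adjusted p = 0.00071), and control cells had 1646 ± 77.4 and 1716 ± 55.4 CPM. The interaction was -0.51 ± 0.13 (adjusted p = 0.015). The interaction call was lost without knockout replicate 1 without selenite or replicate 2 with it (-0.46 each, adjusted p 0.059 and 0.065). Against control cells LDHB differed from LDHA in its calls. Its log2 difference was 0.21 without selenite (adjusted p = 0.084) and -0.30 with it (adjusted p = 0.0069). The second call was lost without knockout replicate 2 or 3 with selenite (adjusted p 0.051 to 0.059).

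**Figure D4:**
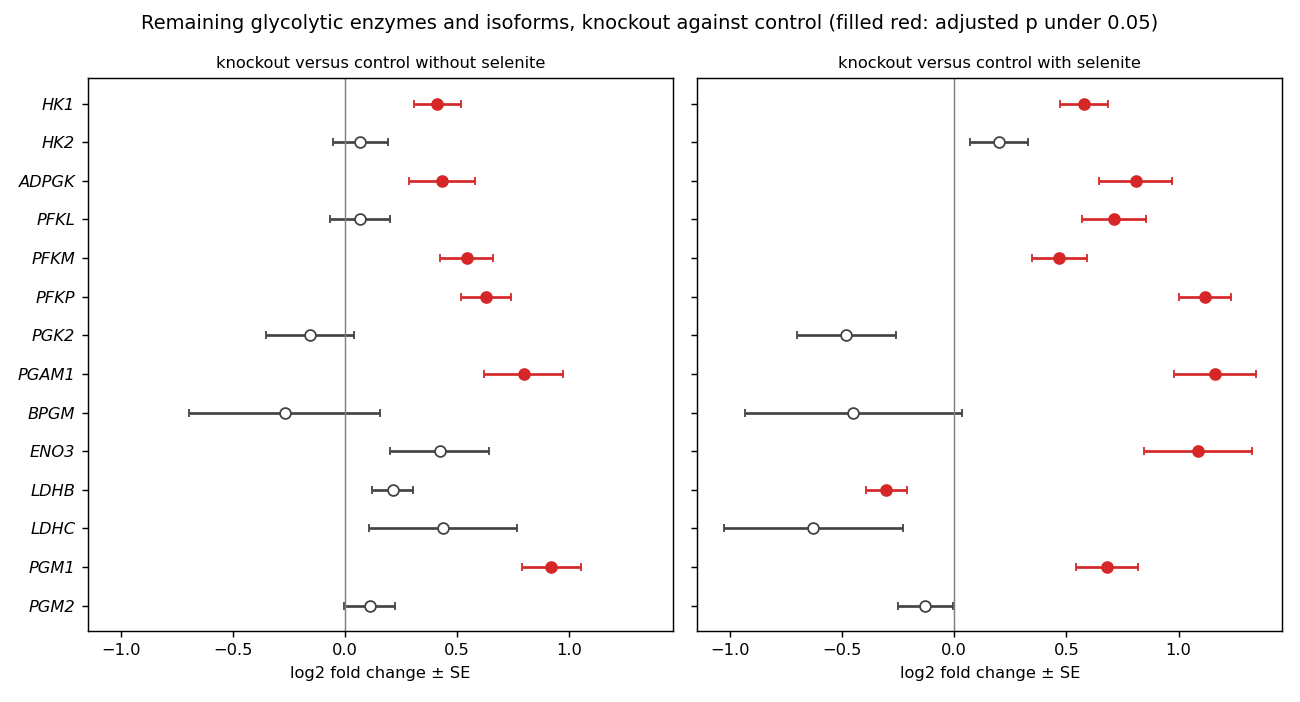
Log2 fold change ± SE (horizontal axes) of 14 further enzymes and isoforms of glycolysis, knockout against control without and with selenite, from 3 libraries per group, with filled red points for an edgeR adjusted p under 0.05. PGAM1, PFKP and PGM1 lie to the right of 0 in both panels, and LDHB lies to the left (-0.30) with selenite.

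MYC had 8.51 to 21.8 CPM in control libraries without selenite and 95.5 to 116.2 CPM in knockout libraries, and 14.3 to 20.4 against 119.2 to 153.7 CPM with it. All knockout libraries were far above all controls, and the log2 changes were 2.88 ± 0.20 (adjusted p = 4.2e-14) and 2.96 ± 0.21 (adjusted p = 5.6e-14). HIF1A had 428.3, 390.2 and 369.5 CPM in knockout libraries without selenite and 333.8, 241.0 and 279.5 CPM with it. It fell by 0.46 ± 0.11 on the log2 scale (adjusted p = 0.0041) in the knockout with selenite, a call lost without replicate 2 of that group (-0.34, adjusted p = 0.066). Against control cells HIF1A fell by 0.54 ± 0.11 with selenite (adjusted p = 0.00017), and its log2 difference without selenite was -0.17 ± 0.11 (adjusted p = 0.28). The interaction for HIF1A was -0.37 ± 0.15 (adjusted p = 0.13). Of 21 tested hypoxia-inducible targets outside glycolysis, 5 rose and 6 fell in the knockout without selenite (11.8% and 12% of all genes), and 4 rose and 7 fell with it (21.3% and 21.6% of all genes).

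Of 13 tested genes for glucose and lactate transport and fructose bisphosphate control, 3 rose and 2 fell in the knockout without selenite, where 11.8% of all genes were called higher and 12% lower. Their median log2 change was -0.072. SLC2A6, a glucose transporter of the GLUT family, rose by 1.07 (adjusted p = 0.00036), SLC16A3, a lactate exporter, fell by 1.85 (adjusted p = 0.00028) and SLC2A3, a high-affinity glucose transporter, fell by 0.69 (adjusted p = 0.00091). SLC16A3 had few counts, at 16.0 to 18.4 CPM in control and 3.32 to 6.62 CPM in knockout libraries without selenite. Its log2 difference with selenite was -0.60 (adjusted p = 0.19). SLC16A1, another lactate transporter, rose by 0.67 without and 0.51 with selenite (adjusted p = 8e-06 and 0.00035). With selenite (21.3% and 21.6% of all genes) 5 rose and 0 fell, with SLC2A6 at 1.49 (adjusted p = 3.2e-06). Of 15 genes of pyruvate entry, 5 rose and 2 fell without selenite and 8 rose and 2 fell with it, against the same shares of all genes. PDP1, a phosphatase that switches pyruvate dehydrogenase on, fell by 1.89 and 2.16 on the log2 scale (adjusted p = 3e-16 and 9.5e-17). PDK4, a kinase that switches it off, rose by 1.56 and 1.05 (adjusted p = 2.8e-08 and 0.00013). The related phosphatase PDP2 went the other way from PDP1 and rose by 0.89 and 1.03 (adjusted p = 0.00011 and 1.7e-05). The kinase PDK2 fell by 0.97 without selenite (adjusted p = 0.0015), and its log2 difference with selenite was -0.23 (adjusted p = 0.46).

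Over the 12 libraries, the genes whose log2 CPM followed the mean profile of the 10 enzymes most closely, out of 4193 with a mean of at least 50 CPM, were UBA1, MTA2, KIF22, ZC3H18 and PLCG1. Their root-mean-square differences from that profile were 0.063, 0.067, 0.071, 0.074 and 0.078 on the log2 scale. Among the enzymes themselves PGK1 (0.063) and TPI1 (0.068) were nearest to the common profile, and ENO2 (0.36) and LDHA (0.27) were farthest. Each enzyme is part of the mean it is measured against, so these values are not comparable with those of the outside genes.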

How the data were processed

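Per the labels' protocols, lysates made with cycloheximide and tigecycline were digested with RNase I, fragments were chosen by size on a gel and rRNA was removed. Per the submitters' processing notes, Trim Galore 0.6.10, STAR 2.7.9a, DESeq2 and the GRCh38 build were used, with no role given. The counting tool, strand setting and use of the molecular identifiers in the primer are not given in the sources used here. The authors deposited raw footprint counts per gene, and these were the only values analysed.

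Counts were fitted in R 4.3.3 with edgeR 4.0.16 (limma 3.58.1) for all 12 libraries: filterByExpr (minimum count 10, minimum total 15), TMM scaling, robust quasi-likelihood F tests with 1 coefficient per group, 5 contrasts, and Benjamini-Hochberg adjustment over 10467 genes at 0.05. Standard errors are approximate, being the size of the log2 change over the square root of F. No label ties the 3 libraries of a group to separate cultures, and p-values then cover the spread between these libraries alone, which may be technical. Replicate numbers were not taken as pairs. Same-numbered libraries of different groups had correlations of -0.035 to 0.28 between their deviations from the group mean, with 7 of 18 over 0.1. Differently numbered libraries had -0.29 to 0.13. These values do not settle whether the libraries are paired, and a fit with a replicate block is given among the alternatives.

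The members and gene lists were chosen with earlier results of these data known. Named genes were all members, FTSJ1, HIF1A, MYC, up to 3 genes per list and contrast with the largest change past the threshold and a mean of at least 10 CPM (the 2 with the highest mean where none passed), and the 5 genes nearest to the members' profile. Alternatives were other scalings, DESeq2 1.42.0, no filter, only the compared groups, a replicate block, thinning, left-out libraries, left-out histone genes and removal of a gene density trend.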

Additional observations from a re-analysis of the deposited data

Results flagged for a closer look

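For the following genes the change with selenite differed between knockout and control cells by the interaction test, given as log2 values with the edgeR adjusted p. Among the members these were ENO2 (1.00, 0.0032), GAPDH (0.48, 0.026), ALDOA (0.46, 0.019) and LDHA (-0.43, 0.031). Among the named genes of the other lists, LDHB had -0.51 (0.015), PFKL, the liver form of phosphofructokinase, 0.65 (0.037), and BSG, the chaperone of the lactate transporters, 0.61 (0.012). PFKFB4, which sets the level of fructose 2,6-bisphosphate, had 1.22 (0.045). PLOD1 (0.56, 0.023) and P4HA1 (-0.64, 0.036), both hydroxylases of collagen, and SOX10 (0.95, 7e-04), a melanocyte lineage factor, also passed. Several of these calls were lost when 1 library was left out: PFKL in 11 of 12 such fits, all but that without knockout replicate 1 with selenite (adjusted p 0.052 to 0.11), and PFKFB4 in 10, all but those without that library or control replicate 2 with selenite (0.052 to 0.13). P4HA1 was lost in 8, without replicate 1 or 2 of the control and 1 or 3 of the knockout at 0 nM, and 1 or 3 of the control and 2 or 3 of the knockout at 30 nM (0.063 to 0.15). PLOD1 was lost in 4, without control replicate 1 or knockout replicate 1 or 3 at 0 nM or control replicate 1 at 30 nM (0.051 to 0.092), and BSG in 1, without knockout replicate 1 at 0 nM (0.051). SOX10 and ENO2 passed in all 12, and the losses for LDHB, ALDOA, GAPDH and LDHA are given above. The groups of 3 libraries were too small for a check of single libraries against the rest.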

How the results depend on the processing

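0 called values reversed under the alternatives run. Without both small knockout libraries with selenite, members called were 3 for knockout against control with selenite, 0 for selenite in knockout cells and 0 for the interaction, with medians of 0.20, 0.21 and 0.25 and with 2777, 54 and 10 genes called. With the gene density trend removed, the medians of these 3 comparisons were 0.18, 0.16 and 0.20, and selenite in knockout cells and the interaction had 1224 and 362 genes. DESeq2 called 1656 genes for the knockout without selenite and 1404 for selenite in knockout cells, against 2501 and 2149 by edgeR, and thinning called 1377 for the first and 415 for the interaction, against 780. The replicate block gave 1268 genes for the interaction and 5 for selenite in control cells, where a fit of only the compared groups gave 4; under the block ALDOA in the knockout without selenite (adjusted p = 0.023), GPI with selenite in the knockout (0.029) and TPI1 in the interaction (0.023) also passed. With histone genes left out of the totals, the members' shares were 1.97% and 2.15% for control and knockout without selenite and 1.90% and 2.35% with it.

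Leaving out 1 library at a time, members called were 1 to 3 and 5 to 7 for the knockout without and with selenite, 0 to 0 and 4 to 7 with selenite in each genotype (control, then knockout), and 1 to 5 for the interaction. Genes called were 1882 to 2723, 3674 to 4491, 1 to 3, 802 to 2758 and 123 to 1707, and medians 0.028 to 0.099, 0.23 to 0.32, -0.088 to -0.026, 0.23 to 0.33 and 0.27 to 0.37. Members that came past the threshold on such an omission were ENO2 in the knockout without selenite (0.41 without knockout replicate 1), LDHA in the knockout with selenite (-0.25 without knockout replicate 1), TPI1 in the interaction (0.42 without the same library), and GPI and ALDOC with selenite in knockout cells (0.31 and 0.45 without knockout replicate 2 at 0 nM). The causes of these shifts were not tested. Levels per coding length were not run, since no coding lengths were at hand. Depth limits ALDOC and ENO2 most among the members.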
